A study of Mus musculus with 5 samples.

Results

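Glutathione and NRF2-linked detoxification genes were examined in mouse gastric organoids, which are clusters of stomach epithelial cells grown in gel. The 43 members were listed by gene symbol, and 43 of 43 were found among the 23779 genes that the arrays named. The list was chosen with earlier results of these data known, so counts of members describe this list and are not an independent test. Each member was read from its brightest probe by mean level, out of the probes whose transcript accession maps to it. NRF2, encoded by Nfe2l2, is a transcription factor that KEAP1 marks for degradation until oxidants or electrophiles modify KEAP1. NRF2 then binds a short DNA element, the antioxidant response element, beside genes for glutathione synthesis, peroxide reduction, NADPH supply and the conjugation and export of foreign compounds. Gastric epithelium faces ingested chemicals and expresses many of these enzymes.

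The 5 samples were hybridised to 1 one-colour Agilent array each. 4 were organoids recovered from tumours grown under the skin, and all 4 combined loss of Trp53 with a second lesion: the hairpins shCdh1 #1 and shCdh1 #2 against Cdh1 (hairpin 1 and hairpin 2), Apc580D (the Apc tumour) and Pik3caH1047R (the Pik3ca tumour). The control was an organoid line from Trp53flox/flox mice with the vector pLKO.1 and a luciferase hairpin, taken before inoculation. All were labelled stomach and female and shared 1 serum-free medium. It held EGF at 50 ng/ml, Noggin at 100 ng/ml and R-spondin1 at 250 ng/ml, with Y27632 at 10 μM, the GSK3 inhibitor CHIR-99021 at 2.5 μM and the Notch ligand Jagged-1 at 1 μM. No age, promoter, Cre source or clone number was given, and nothing says that the pair of hairpin samples came from separate animals or cultures, so p-values measure the spread between these samples, which may be technical. Every contrast with the control joins Trp53 loss, the second lesion and passage through a mouse. The labels do not say that the tumours grew from this control line.

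Levels are log2 processed signals minus the 75th percentile of the same array, so 0 is the signal of the 75th-percentile spot and 1 unit is a doubling. Of 59305 spots, 36661 to 38710 stood well above background depending on the array, and 17583 genes with such a spot on at least 1 array were tested. The number of arrays limits the precision. Trp53 stood between −5.86 and −4.86 on the tumour arrays, against 0.85 in the control, and Cdh1 was 0.07 with hairpin 1 and 0.26 with hairpin 2, against 4.39 in the control. The Pik3ca array went against its female label: Xist was at −8.14 there, not well above background, and 4 genes of the Y chromosome (Ddx3y, Eif2s3y, Kdm5d, Uty) exceeded background on that array alone. Results are therefore also given without it. Both hairpins and the control lay on 1 slide, and Apc and Pik3ca on another, so for those 2 tumours slide and genotype cannot be told apart in the contrast with the control.

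Most of the detoxification genes were lower in the tumour organoids than in the control. 42 members were tested, of which 41 were well above background on all 5 arrays. Ugt1a10 was well above background on 4 arrays and Abcc2, a canalicular exporter of glutathione conjugates, on none. In the mean of the 4 tumours, 40 of 42 members were lower than the control, as were 44.6% of all genes tested. 22 members were at least 2-fold lower, against a background of 6.98%, and 0 were at least 2-fold higher, against 9.88%. The control lay above all 4 tumours for 35 tested members, against 24.4% of all genes, and 13 members were at least 2-fold lower on every tumour array, against 2.77%. The median difference of the members was −1.01, while that of all genes tested was 0.06. For 79 other genes of the same pathways it was −0.25. How far the choice of the members, made with earlier results known, shapes these shares was not tested. Members just at the 2-fold mark were Ugt1a10 at −1.02 and Pgd at −1.01, inside it, and Mgst1 at −0.99, outside it. The Ugt1a10 value rests on an Apc signal not well above background and was 0.03 without the Apc array.

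No single member passed the test. With limma and Benjamini-Hochberg adjustment over all genes, 0 of 42 members and 21 of 17583 genes (0.119%) had an adjusted p below 0.05. At an unadjusted p below 0.05, 21 members were lower and 0 higher, against backgrounds of 6.5% and 6.84%. The smallest adjusted p among members was 0.0988, for Ephx1. Without the Pik3ca array, 41 of 42 members were lower, 23 at least 2-fold (1142 of 17583 genes), with a median of −1.17 (0.06 for all genes). The share of all genes lower without it was not computed. With slide as a block, the differences are those of the hairpin mean from the control, and Apc and Pik3ca do not enter them. There 39 members were lower (43.4% of all genes), 23 at least 2-fold (7.51%), with a median of −1.11 (0.09 for all genes). In bulk RNA, fewer cells of a type and less RNA per cell cannot be told apart.

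**Figure D1:**
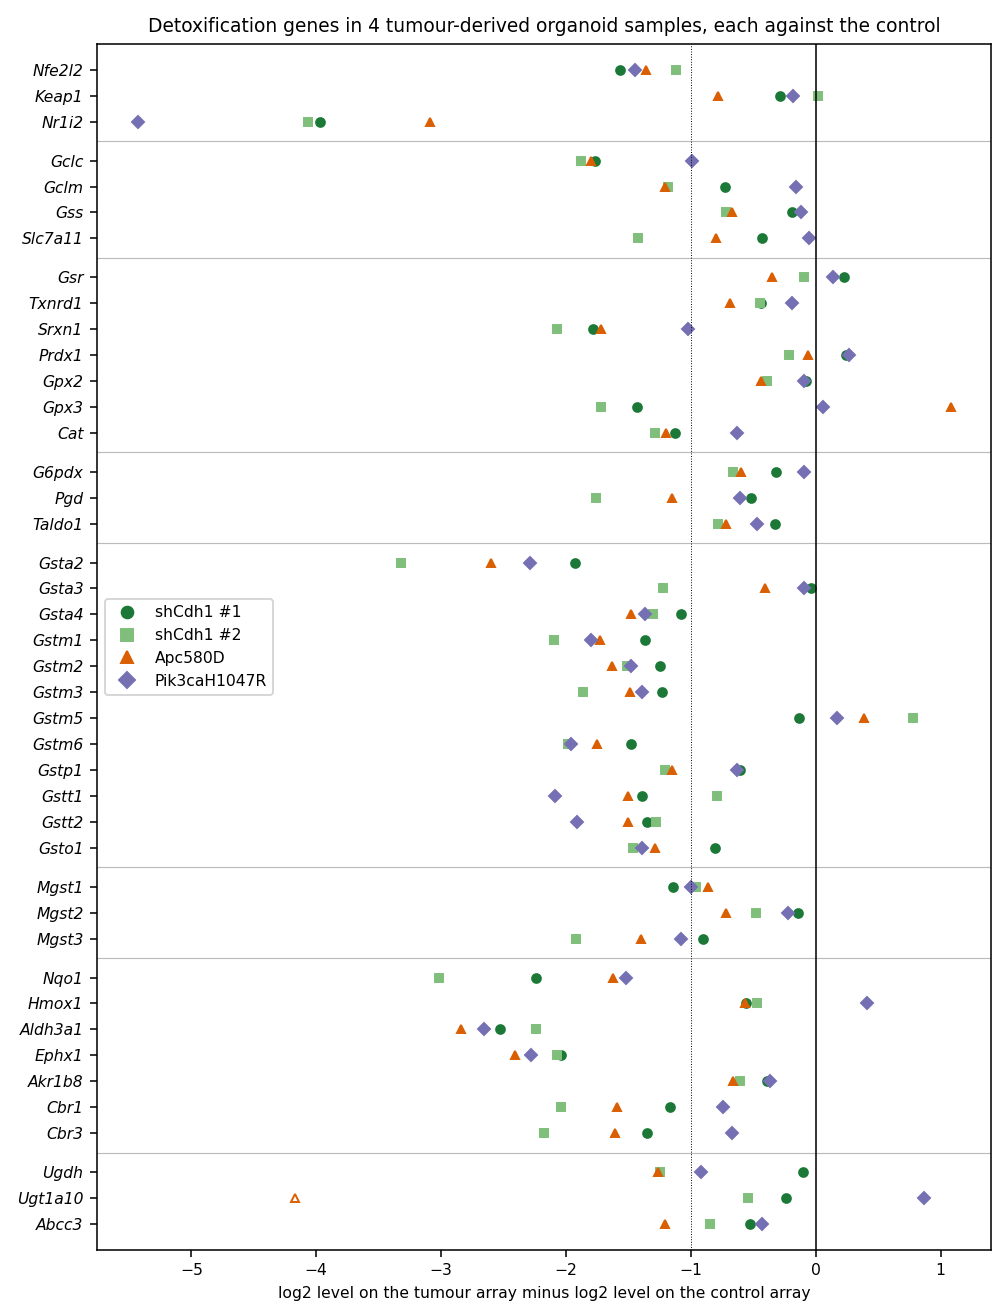
Difference in log2 level between each tumour array and the control array (horizontal axis) for the 42 tested members (rows, grouped by role). The solid line marks the control, the dotted line a 2-fold lower level, and the open triangle a signal not well above background. Most points lie left of 0, and 35 members have all 4 tumours there.

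The epithelial identity of the samples was checked with fixed marker lists. The summed linear level of 6 of 6 measured epithelial markers (Epcam, Krt8, Krt18, Krt19, Cldn7 and Cdh1) was 555 to 783 in the tumours and 697 in the control. The summed level of 11 gastric markers was 49.3 to 142 in the tumours and 228 in the control, with 6 of the 11 lower in all 4 tumours, among them Tff1, Tff2 and Cblif. Pgc, which encodes the zymogen of chief cells, was at 0.01, 1.31, 0.23 and −2.41 in hairpins 1 and 2, Apc and Pik3ca, against 3.11 in the control. Of 6 fibroblast markers, Col3a1 and Lum were not well above background on any array, and the list summed to 0.0964 to 0.236 in the tumours, against 0.0748 in the control. Of 5 leukocyte markers, Adgre1 and Cd79a were likewise dim throughout, and the list, mostly Cd68, summed to 9.18 to 15.2 in the tumours, against 6.54 in the control. Of the 4 hepatocyte markers, 1 was well above background on all arrays, and they summed to 0.144 to 0.71 in the tumours and 0.596 in the control. The 5 endothelial markers summed to 0.0865 to 0.154 in the tumours and 0.234 in the control. The 4 intestinal markers summed to 0.761 to 4.4 in the tumours and 1.47 in the control, and the 4 squamous forestomach markers to 3.83 to 5.14 in the tumours and 3.07 in the control. The gastric and endothelial sums were thus lower in all 4 tumours, as most detoxification genes were, and the fibroblast, leukocyte and squamous sums higher. The gastric sum is mostly Tff1, at 6.96, 5.13, 6.31 and 5.58 in hairpins 1 and 2, Apc and Pik3ca, against 7.51 in the control, while Sox2 was higher in all 4 tumours and the other 4 gastric markers lay on both sides of the control. The endothelial sum in the control is mostly Emcn, at −8.30 to −7.99 in the tumours, not well above background, and −2.54 in the control, and of the 5 endothelial markers 1 was lower and 1 higher in all 4 tumours. The squamous sum is mostly Trp63, at 1.90 to 2.25 in the tumours and 1.56 in the control. Krt5 was lower in all 4 tumours and the other 3 squamous markers were higher in all 4. Of the 6 fibroblast markers, 1 was well above background on all arrays, and 2 were higher and 0 lower in all 4 tumours. The part of these markers in the result was not tested.

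Promoter sequences from RefSeq (GRCm38.p6, 250 bases before to 50 after each gene's start) were available for 36 of the 43 members. The core of the antioxidant response element, TGACNNNGC, was searched on both strands. It was found for 12 of 36 members (33.3%), against 14.0% of 27025 genes with a promoter. A longer form with an A after the core, whose matches are also matches to the core, was found for 4 of 36 members (11.1%), against 3.45% of genes. A match describes the letters only. The 12 members with a core match were Nfe2l2, Gclm, Prdx1, Txnrd1, Srxn1, G6pdx, Pgd, Gsta3, Gstm5, Mgst1, Ugdh and Abcc2. The windows of 6 of them, chosen after their values were seen, are printed as examples from the regulator, synthesis, reduction and transferase genes, with the matching bases in capitals and each on the strand that carries the match.
Nfe2l2, chr2:75704879-75704913, minus strand: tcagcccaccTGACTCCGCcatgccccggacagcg
Gclm, chr3:122245407-122245447, minus strand: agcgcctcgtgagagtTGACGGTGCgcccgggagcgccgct
Prdx1, chr4:116685450-116685490, minus strand: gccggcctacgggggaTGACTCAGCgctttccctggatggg
Txnrd1, chr10:82859098-82859138, minus strand: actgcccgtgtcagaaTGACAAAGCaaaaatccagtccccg
Gsta3, chr1:21240448-21240488, plus strand: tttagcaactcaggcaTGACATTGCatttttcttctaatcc
Gstm5, chr3:107895796-107895836, plus strand: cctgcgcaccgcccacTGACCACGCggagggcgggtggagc
These 6 matches lie before the gene's start and begin between position −240 (Nfe2l2) and position −42 (Gstm5). Of those not printed, the Pgd match (positions 4 to 12) and the Srxn1 match (29 to 37) lie after the start. The longer form was held by the matches of Txnrd1, Gsta3, Pgd and Abcc2. Of 73 other pathway genes with a promoter, 13 (17.8%) held a core match. Among tested members, the median tumour minus control difference was −0.82 for the 11 with a core match and −1.28 for the 24 with a promoter but none. In these groups 3 and 15 were at least 2-fold lower (6.98% of all genes). Bases outside the window were not searched, so members without a match may hold the element elsewhere. The 2 groups therefore do not divide members with the element from members without it.

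The transcript of NRF2 itself was lower in every tumour. Nfe2l2 stood at 3.50, 3.95, 3.71 and 3.62 in hairpins 1 and 2, Apc and Pik3ca, against 5.07 in the control. The tumours spanned 0.45 and did not overlap the control, a difference of −1.38 ± 0.25 (SE), or 2.6-fold lower, with a limma adjusted p of 0.222. A dimmer second probe of Nfe2l2 was also lower in 4 of 4 tumours but by a mean of only 0.33: it read −0.69, 0.16, 0.16 and −0.11 in the tumours and 0.21 in the control. NRF2 activity is set largely by protein stability, which these arrays do not measure.

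Keap1, which encodes the adaptor that targets NRF2 for ubiquitination, differed little. It stood at 2.64, 2.95, 2.15 and 2.75 in hairpins 1 and 2, Apc and Pik3ca, against 2.93 in the control, and hairpin 2 lay just above the control. The difference was −0.31 ± 0.35, with a limma adjusted p of 0.746.

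Nr1i2, which encodes the xenobiotic receptor PXR, had the greatest difference from the control of any member detected on every array. It stood at −4.02, −4.12, −3.14 and −5.48 in hairpins 1 and 2, Apc and Pik3ca, against −0.05 in the control. No tumour came within 3 log2 units of the control. The difference was −4.14 ± 0.86, or 17.6-fold lower, with a limma adjusted p of 0.232. The tumour signals were well above background but dim. The Pik3ca level was the lowest of these members on any tumour array, so the size of the fold is uncertain. The 4 tumours spanned 2.34, with Apc highest and Pik3ca lowest, and the difference was −3.71 without the Pik3ca array.

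Genes of glutathione synthesis were lower in the tumours by unequal amounts. Gclc, the catalytic subunit of the rate-limiting ligase, stood at 3.46, 3.34, 3.42 and 4.23 in hairpins 1 and 2, Apc and Pik3ca, against 5.23 in the control. The Pik3ca tumour lay between the other tumours and the control, and the groups did not overlap. The difference was −1.61 ± 0.41, 3.06-fold lower, with a limma adjusted p of 0.269. Gclm, the modifier subunit of the same ligase, differed by −0.82 and Gss, which adds glycine to complete glutathione, by −0.42. Both had all 4 tumours below the control.

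Slc7a11, the cystine importer that supplies cysteine, stood at 2.39, 1.40, 2.01 and 2.76 in hairpins 1 and 2, Apc and Pik3ca, against 2.82 in the control. The Pik3ca tumour was close to the control and hairpin 2 was well below it. The difference was −0.68 ± 0.54, with a limma adjusted p of 0.639, and the tumours spanned 1.36. A dimmer second probe gave −1.18, lower in 4 of 4 tumours.

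Among 7 genes of thiol and peroxide reduction, 2 were at least 2-fold lower in the mean of the tumours (6.98% of all genes) and 5 were not. Srxn1, sulfiredoxin, which restores over-oxidised peroxiredoxins, stood at 2.81, 2.52, 2.87 and 3.57 in hairpins 1 and 2, Apc and Pik3ca, against 4.59 in the control. All 4 tumours were at least 2-fold below the control, by −1.65 ± 0.43 in the mean, with a limma adjusted p of 0.277. Cat, catalase, differed by −1.06, also with 4 of 4 tumours lower.

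Gsr, Prdx1, Gpx2 and Txnrd1 differed less from the control. Gsr, which regenerates reduced glutathione, differed by −0.02 ± 0.30 and Prdx1, a 2-cysteine peroxiredoxin, by 0.06 ± 0.28, and for each the tumours lay on both sides of the control. Gpx2, the gastrointestinal glutathione peroxidase, stood at 7.84 to 8.20 in the tumours and 8.28 in the control and differed by −0.25 ± 0.26. Txnrd1, thioredoxin reductase, differed by −0.44 ± 0.26, and its second probe by −0.63. For Gpx2 and Txnrd1 all tumours lay below the control. Core matches in this group were found for Srxn1, Prdx1 and Txnrd1, of which Srxn1 differed most from the control.

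Gpx3, the secreted glutathione peroxidase, had the widest range over the 4 tumours, 2.81, of the members detected on every array. It stood at −4.97, −5.26, −2.46 and −3.48 in hairpins 1 and 2, Apc and Pik3ca, against −3.54 in the control. Its signals were well above background but dim, with the lowest control level of these members, so the size of the range is uncertain. Both hairpins were at least 2-fold below the control, Apc was 1.08 above it and Pik3ca was level with it. The mean difference from the control was −0.50 ± 1.16, with a limma adjusted p of 0.882. The hairpins differed from the mean of the other tumour genotypes by −2.15 ± 0.25, with a limma adjusted p of 0.485 in the fit that gives each genotype its own mean.

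The NADPH suppliers of the pentose phosphate pathway were lower in 4 of 4 tumours, as were 24.4% of all genes. G6pdx, its first enzyme, differed by −0.42 ± 0.30, Pgd, the next NADPH-producing step, by −1.01 ± 0.54, and Taldo1, of the non-oxidative branch, by −0.58 ± 0.27. None of the 3 had an unadjusted p below 0.05.

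Cytosolic glutathione transferases join glutathione to electrophiles. Of the 12 measured, 11 were lower in the mean of the tumours (44.6% of all genes), 9 at least 2-fold (6.98%), and 7 were at least 2-fold lower on each tumour array (2.77%). Their median difference was −1.46. 10 of the 12 were lower with an unadjusted p below 0.05 (6.5% of all genes), and 0 passed after adjustment (0.119%).

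The alpha class was mixed. Gsta2 stood at 4.88, 3.49, 4.21 and 4.53 in hairpins 1 and 2, Apc and Pik3ca, against 6.82 in the control. All tumours were far below the control, by −2.54 ± 0.55 or 5.8-fold in the mean, with a limma adjusted p of 0.241. Gsta4, which prefers the lipid peroxidation product 4-hydroxynonenal, differed by −1.31 ± 0.24. Gsta3, whose promoter match is printed above, differed by −0.44 ± 0.51, with hairpin 2 at 5.43 and the other tumours at 6.24 to 6.61, against 6.65 in the control.

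Mu-class genes lie side by side on chromosome 3 in the order Gstm5, Gstm7, Gstm6, Gstm3, Gstm2, Gstm1 and Gstm4. Gstm1 stood at 5.60, 4.86, 5.23 and 5.16 in hairpins 1 and 2, Apc and Pik3ca, against 6.96 in the control, a difference of −1.75 ± 0.33 (limma adjusted p 0.222). Gstm2 stood at 4.34, 4.09, 3.97 and 4.12 in the same tumours, against 5.60 in the control, a difference of −1.47 ± 0.24 (limma adjusted p 0.182). In both, the tumours lay within 0.73 of one another and more than 1.2 below the control.

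Gstm3 stood at 5.90, 5.26, 5.63 and 5.74 in hairpins 1 and 2, Apc and Pik3ca, against 7.12 in the control, a difference of −1.49 ± 0.30 (limma adjusted p 0.23). Gstm6 stood at 1.29, 0.79, 1.02 and 0.81 in the same tumours, against 2.77 in the control, a difference of −1.79 ± 0.28 (limma adjusted p 0.174). Its second probe read 0.50, 1.08, 0.39 and 0.90 in the tumours and 0.96 in the control, which overlap, so the probes of Gstm6 disagree. Gstm4 and Gstm7, which are not members, were lower in 4 of 4 tumours, by −1.93 ± 0.31 and −0.95 ± 0.26.

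Gstm5, at one end of this row of genes, was not lower. It stood at 3.69, 4.60, 4.20 and 3.99 in hairpins 1 and 2, Apc and Pik3ca, against 3.82 in the control. 3 tumours were above the control and hairpin 1 was below it, with a difference of 0.30 ± 0.39 and a limma adjusted p of 0.775. A second Gstm5 probe gave 0.35, with the same 3 tumours above. Mu-class genes are close copies of one another, and so are Gsta1 and Gsta2, Gstp1 and Gstp2, and the Ugt1a transcripts. Probe letters are not in the files, so how far a probe also reads a neighbour was not tested.

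**Figure D2:**
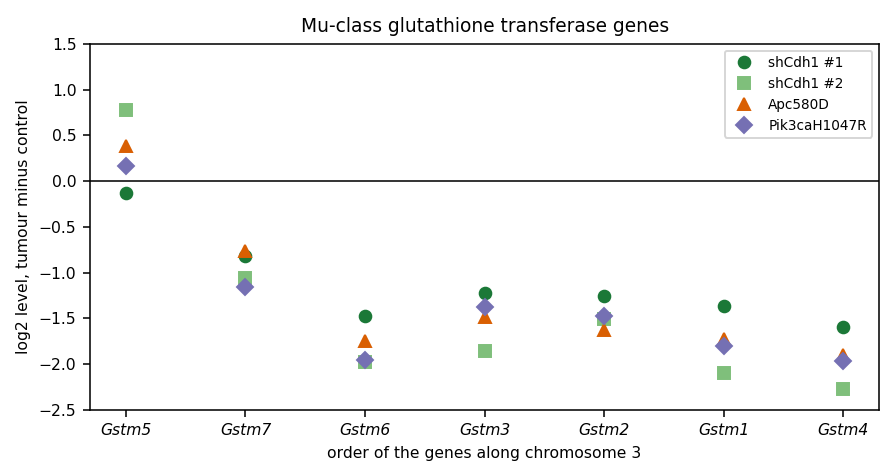
Difference in log2 level between each tumour array and the control array (vertical axis) for 7 mu-class glutathione transferase genes in their order along chromosome 3 (horizontal axis). 6 of the 7 have all 4 tumours below the control, and Gstm5 has 3 above it.

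Gstt2, of the theta class, stood at 0.88, 0.95, 0.73 and 0.32 in hairpins 1 and 2, Apc and Pik3ca, against 2.23 in the control. All 4 tumours were at least 2-fold lower, by −1.51 ± 0.31 in the mean (limma adjusted p 0.231). The other cytosolic members with all tumours below the control were Gstt1 (−1.44 ± 0.50), Gsto1, of the omega class (−1.24 ± 0.32), and Gstp1, of the pi class (−0.90 ± 0.34). A second Gsto1 probe gave −1.89. Of the microsomal transferases, membrane proteins of a separate family, Mgst3 differed by −1.32 ± 0.44, Mgst1 by −0.99 ± 0.22 and Mgst2 by −0.39 ± 0.30, each with 4 of 4 tumours lower.

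Oxidoreductases and hydrolases held the differences with the smallest p-values. Ephx1, microsomal epoxide hydrolase, which opens epoxides to diols, stood at 4.64, 4.60, 4.27 and 4.40 in hairpins 1 and 2, Apc and Pik3ca, against 6.68 in the control. The tumours spanned 0.37 and lay more than 2 units below the control. The difference was −2.20 ± 0.25, 4.59-fold lower, with a limma adjusted p of 0.0988.

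Aldh3a1, an aldehyde dehydrogenase of stomach and cornea that oxidises aromatic and lipid-derived aldehydes, stood at 2.65, 2.95, 2.35 and 2.53 in hairpins 1 and 2, Apc and Pik3ca, against 5.19 in the control. The difference was −2.57 ± 0.29, 5.92-fold lower, with a limma adjusted p of 0.104. Under normexp background correction, Ephx1 (adjusted p 0.0316) and Aldh3a1 (adjusted p 0.0376) were the 2 members that passed, among 0.273% of genes. Over the other settings the adjusted p ran from 0.0596 to 0.304 for both.

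Nqo1, the quinone reductase often used as a readout of NRF2, stood at −0.14, −0.91, 0.48 and 0.59 in hairpins 1 and 2, Apc and Pik3ca, against 2.11 in the control. The tumours did not overlap the control but spanned 1.5, with both hairpins below the other tumours. The difference was −2.10 ± 0.63, 4.29-fold lower, with a limma adjusted p of 0.303. Cbr3, a carbonyl reductase, stood at 5.75, 4.92, 5.48 and 6.43 in the same tumours, against 7.10 in the control, a difference of −1.45 ± 0.58 (limma adjusted p 0.382). Hairpin 2 was lowest and Pik3ca nearest to the control. Its relative Cbr1 differed by −1.38 ± 0.52.

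Hmox1, haem oxygenase, lay on both sides of the control. It stood at 4.55, 4.64, 4.54 and 5.53 in hairpins 1 and 2, Apc and Pik3ca, against 5.11 in the control. 3 tumours were below the control within 0.1 of one another and Pik3ca was above it, with a mean difference of −0.30 ± 0.46 (limma adjusted p 0.814), or −0.54 without the Pik3ca array. Akr1b8, an aldo-keto reductase, differed by −0.51 ± 0.23, with 4 of 4 tumours lower.

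**Figure D3:**
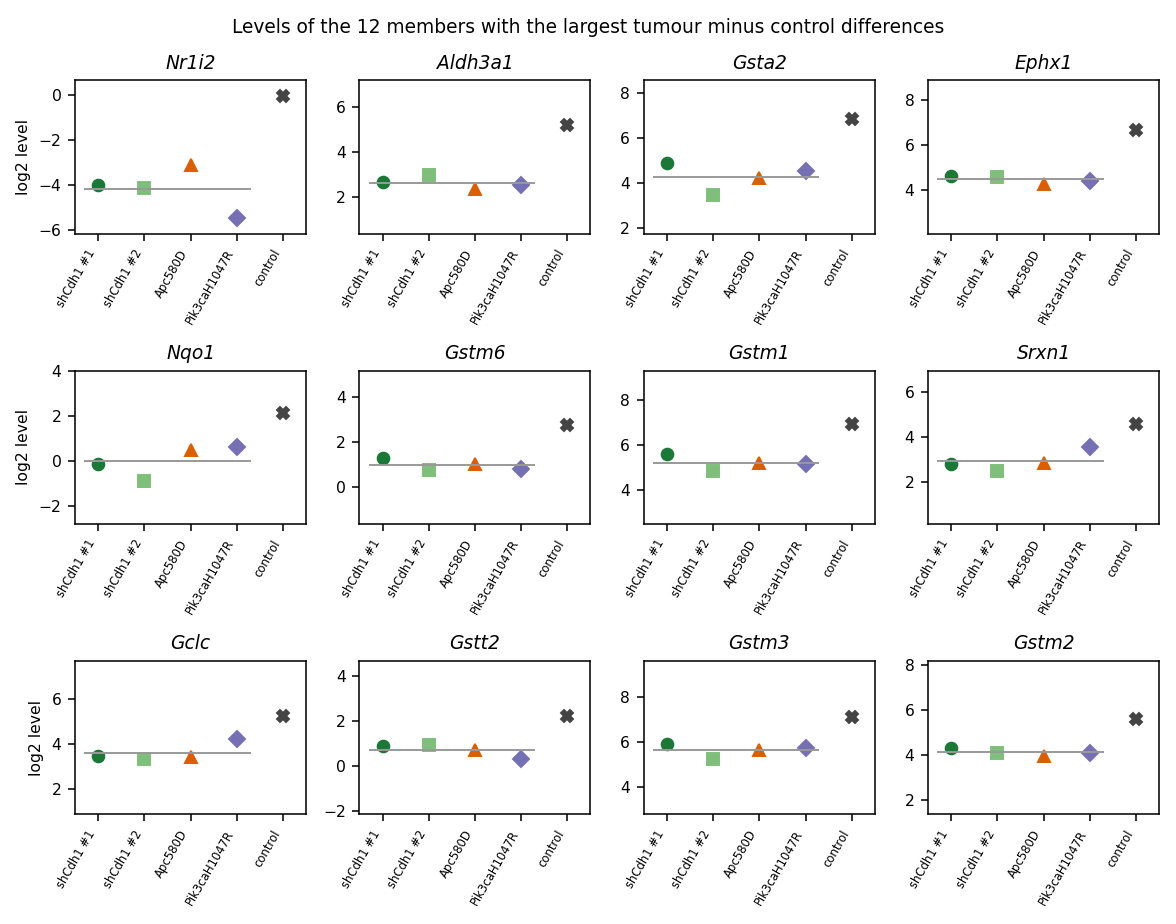
Log2 level on each array (vertical axis, the same span in each panel) of the 12 members with the greatest tumour minus control differences, with the tumour samples to the left of the control and a grey line at the tumour mean. In all 12 panels the control lies above the 4 tumours.

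Conjugation and export were represented by Ugdh, Ugt1a10, Abcc2 and Abcc3. Ugdh, which makes UDP-glucuronic acid, differed by −0.88 ± 0.51, and Abcc3, a basolateral exporter of conjugates, by −0.76 ± 0.36, both with 4 of 4 tumours lower. Ugt1a10, which transfers glucuronic acid to its substrates, stood at −3.24, −3.54, −7.16 and −2.12 in hairpins 1 and 2, Apc and Pik3ca, against −3.00 in the control. The Apc signal was not well above background, so only a bound can be given there. The control was at least 9.4-fold above Apc, hairpin 1 at least 7.97-fold, hairpin 2 at least 6.46-fold and Pik3ca at least 17.2-fold. These bounds use the lowest signal well above background on the Apc array (−6.23). The limma adjusted p was 0.853 for the 4 tumours against the control and 0.225 for Apc against the other tumour genotypes. Abcc2 read −8.06, −8.14, −8.35 and −8.10 in the tumours and −7.16 in the control, all not well above background, so no fold is given.

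The 4 tumours were next set one by one against the control. At least 2-fold lower were 20 members in hairpin 1 (background 8.64%), 26 in hairpin 2 (8.34%), 26 in Apc (6.49%) and 16 in Pik3ca (10.0%). The median differences were −0.85, −1.26, −1.24 and −0.65 in the same order, against 0.08, 0.09, −0.01 and 0.06 for all genes. The 4 contrasts share the control array. At least 2-fold higher was 1 member in Apc, Gpx3 (background 11.3%), and 0 in hairpin 1 (8.69%), hairpin 2 (11.0%) and Pik3ca (12.1%). In the fit with 1 mean per genotype, 0 members and 0 of 17583 genes had an adjusted p below 0.05 for the hairpin pair, Apc or Pik3ca against the control, while 9.74%, 9.02% and 11.5% of genes (for hairpins, Apc and Pik3ca) had an unadjusted p below 0.05. The hairpin pair had 23 members at least 2-fold lower in its mean (background 7.51%) and a median of −1.11, the same differences as with slide as a block above. The lone Apc, Pik3ca and control arrays are assumed there to vary like the hairpin pair.

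**Figure D4:**
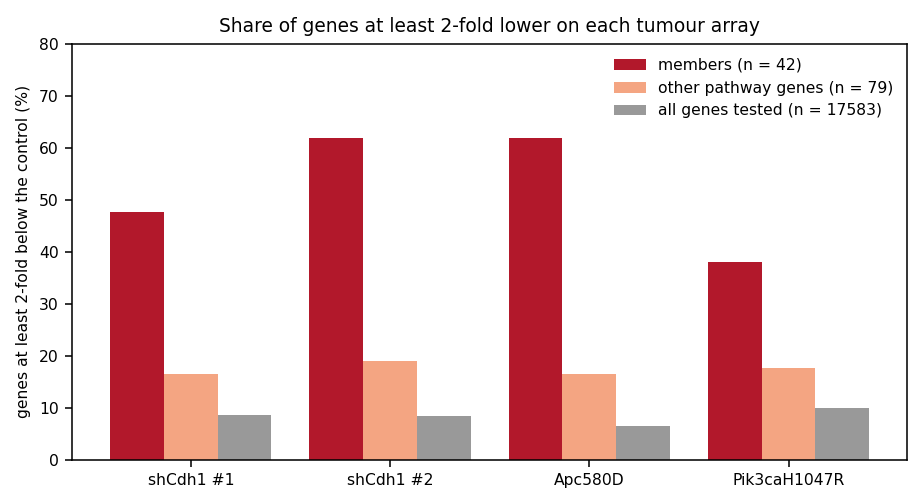
Percentage of genes at least 2-fold below the control (vertical axis, from 0) on each tumour array for the 42 tested members, 79 tested other genes of the same pathways and all 17583 genes tested. The members' bars stand between 38.1% and 61.9%, those of all genes between 6.49% and 10.0%.

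Compared with one another, the tumours ordered the members unevenly. Hairpin 1 was the highest of the 4 tumours for 17 of 42 members (27.0% of all genes) and Pik3ca for 16 (24.9%), while hairpin 2 was highest for 6 (26.5%) and Apc for 3 (21.5%). Hairpin 2 was lowest for 21 members (22.6%) and Apc for 15 (31.3%). By role, Pik3ca was highest for 4 of 4 genes of glutathione synthesis and cystine import and 5 of 7 oxidoreductases and hydrolases, and hairpin 1 for 9 of 12 cytosolic transferases. These orders are descriptions of 4 arrays. In the tests of each genotype against the mean of the other tumour genotypes, 0 members passed, and the smallest limma adjusted p-values of members were 0.485 (Gpx3) for the hairpins, 0.225 (Ugt1a10) for Apc and 0.631 (Ugt1a10) for Pik3ca. In those 3 comparisons 0 of 17583 genes passed, and 6.03%, 6.03% and 5.73% had an unadjusted p below 0.05.

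**Figure D5:**
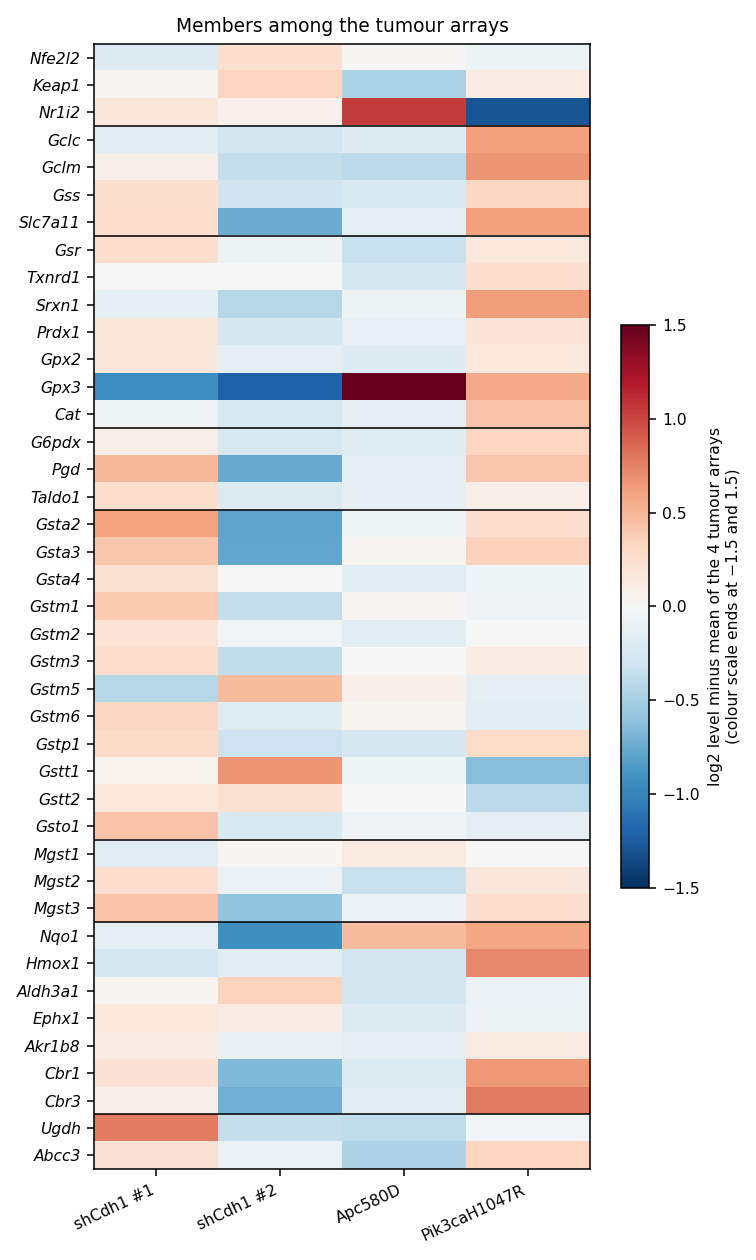
Log2 level on each tumour array minus the mean of the 4 tumour arrays (colour) for the 41 members well above background on all arrays (rows, grouped by role). Pik3ca is highest throughout glutathione synthesis and cystine import, hairpin 2 is lowest for 7 of 12 cytosolic transferases, and Gpx3 and Nr1i2 vary most.

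The pair of hairpins, the only replicates, were not level for these genes. Hairpin 2 was lower than hairpin 1 for 34 of 42 members, as for 50.8% of all genes, and the median difference was −0.32, against −0.01 for all genes. 5 members were at least 2-fold lower in hairpin 2 (background 5.31%), namely Gsta2 (−1.39), Pgd (−1.24), Gsta3 (−1.18), Ugdh (−1.15) and Mgst3 (−1.03), and 0 were at least 2-fold higher (7.91%). Gstm5 ran the other way, at 4.60 in hairpin 2 and 3.69 in hairpin 1. With 1 array per hairpin these differences have no replicate check.

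A wider list of the same pathways, without the members, was read in the same way. Of 85 genes listed, 81 were matched and 79 tested, and 0 passed in any of the 7 comparisons. In the mean of the tumours 51 of 79 were lower (44.6% of all genes), 12 of them at least 2-fold (background 6.98%), and 4 were at least 2-fold higher (9.88%), with a median of −0.25. Of 8 other glutathione transferases, 7 were lower. Of 10 partners and regulators of NRF2, 4 were lower, a share near that of all genes, and 0 of them at least 2-fold.

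The lowest of these genes well above background on all arrays were Gstm4 (−1.93 ± 0.31), the glucuronosyltransferases Ugt2b35 (−1.92 ± 0.56) and Ugt1a6b (−1.73 ± 0.90), and Rxra (−1.73 ± 0.30), the retinoid X receptor that pairs with PXR. Rxra stood at 1.51, 1.83, 2.15 and 1.89 in hairpins 1 and 2, Apc and Pik3ca, against 3.57 in the control (limma adjusted p 0.214). Ugt1a6b, like Ugt1a10, was lowest in Apc, at 1.47, with the other tumours at 3.10 to 3.75 and the control at 4.66.

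The highest were Ahr (1.32 ± 0.38), the aryl hydrocarbon receptor, Maff (1.19 ± 0.29), a small MAF partner of NRF2, Txnip (1.10 ± 0.30), which binds and inhibits thioredoxin, and Cbs (1.10 ± 0.46), which channels homocysteine towards cysteine. Ahr stood at 2.41, 2.75, 2.96 and 2.12 in hairpins 1 and 2, Apc and Pik3ca, against 1.24 in the control (limma adjusted p 0.292). For each of these 4 genes all tumours lay above the control.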

How the data were processed

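Total RNA of 5 organoid samples (0.2 μg each) was labelled with Cy3, per the labels' protocols. The scanner files, made with Agilent Feature Extraction 11.0.1.1 per the submitters' processing notes, give each spot as an intensity that was background-subtracted and detrended, per the file headers. The value table that the authors deposited holds log2 values. Its differences between arrays followed the scanner values with slope 1 and r = 1 over 53335 probes, and each probe's baseline in it is unknown (column medians 0.074, 0.031, −0.08 and 0.022 for hairpins 1 and 2, Apc and Pik3ca and −0.057 for the control). It served as an alternative.

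Control and outlier spots were left out, spots of a probe averaged, and log2 processed signals centred on each array's 75th percentile. 34549 probes had 1 gene symbol through the RefSeq table (GRCm38.p6) and 22024 did not. 14 members had several probes, and 13 of 15 further probes had the same sign as the probe used. Arrays had 75th percentiles 24 to 27.9 times the local background.

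limma 3.58.1 (R 4.3.3; lmFit, eBayes, two-sided, Benjamini-Hochberg over 17583 genes, threshold 0.05) was run on 1 term for the 4 tumours against the control, where the single control array is taken to be as variable as the tumours, and on 1 mean per genotype. Values after ± are standard errors. The fit of the 4 tumours against the control was run on simulated data with independent noise of the same spread on every array. That run cannot show how the single control array or the slides affect the results. Every array is given for the 12 members with the greatest differences, the 6 with the greatest tumour range, the 3 regulators and members well above background on some arrays only, and from the wider list the 4 highest and 4 lowest are named. Hmox1, Gstm5 and Gsta3 were added after their values were seen. The members and lists were chosen with earlier results of these data known. Alternatives covered background correction, normalization, filters, probes, slide and leaving out each tumour array. The single control array was kept in every contrast with the control, so its influence was not tested. Further tumour samples that the design text counts were not analysed here.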

Additional observations from a re-analysis of the deposited data

Results flagged for a closer look

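Among the 4 tumour arrays, Pik3ca stood apart from the others for Gclc (3.46, 3.34, 3.42 and 4.23 in hairpins 1 and 2, Apc and Pik3ca, against 5.23 in the control), with a gap to the nearest tumour of 0.871 of the tumours' range. It stood apart likewise for Hmox1 (gap 0.893 of the range). The rule flags about 1 in 20 groups of independent values from 1 population, and 42 members were screened. The tumour arrays differ in genotype and slide, so that rate cannot be applied to them. Whether chance gives this many flags was not tested. The share of all genes flagged was not computed.

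For 5 members, 2 tumour genotypes lay on opposite sides of the control. The share of all genes that do so was not computed, and a gene close to the control can do so by small differences. The hairpins were not tested against Apc or Pik3ca singly, and Apc minus Pik3ca was fitted only as the alternative within slide 2. Gpx3 was lower in the hairpins and higher in Apc (hairpins minus Apc −2.66). In Pik3ca it was almost level with the control, only 0.06 above it (hairpins minus Pik3ca −1.64). Hmox1 was lower in the hairpins and in Apc and higher in Pik3ca (hairpins minus Pik3ca −0.93, Apc minus Pik3ca −0.99). Ugt1a10 showed the same order (hairpins minus Pik3ca −1.26, Apc minus Pik3ca −5.04, the Apc signal not being well above background). Gsr and Prdx1 were lower in Apc and higher in Pik3ca, by −0.49 and −0.33 (Apc minus Pik3ca). The Pik3ca array is the one that went against its sex label, and its part in these differences was not tested.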

How the results depend on the processing

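Over the 13 alternatives the members' median tumour minus control difference stayed between −1.17 and −0.98, and 38 to 41 members were lower. At least 2-fold lower were 20 to 25 members, and 635 (normexp) to 1547 (median centring) of all genes. Among the alternatives, slide as a block gives the differences of the hairpins from the control. The median of all genes ran from −0.08 (median centring) to 0.11, and the share of higher genes among those 2-fold apart was 58.6% as reported but 48.6% with median centring. Of 545 single-member values for the tumours against the control, 534 kept direction and call, 9 turned sign and 2 gained a call. As no member passed in the main fit, an unchanged call says little, and all these values share the control array. The count of all genes past the threshold, 21 as reported, was 48 with normexp, 49 with dim signals raised to a floor, 7 with the test limited to genes detected on all arrays, 0 with slide as a block, and 0 to 19 when an array was left out (0 without either hairpin or without Pik3ca). With normexp, 2 members passed, and 9 genes passed for Apc against the other tumour genotypes. The causes were not tested.

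3 members turned sign against the control. Gsr read 0.09 with normexp, 0.01 without hairpin 2, 0.09 without Apc and 0.07 with slide as a block. Prdx1 read −0.09 with median centring, −0.10 with the mean over probes, 0.00 (just below) without hairpin 1 and −0.01 without Pik3ca, and Ugt1a10 read 0.03 without Apc (−1.65 without Pik3ca, its lowest). Between tumours, the hairpins minus the others ran with single arrays left out from −0.87 to 0.51 for Gsta2 (0.51 without hairpin 2) and from −0.93 (without Pik3ca) to 1.41 for Nr1i2. Apc minus the others turned for Gsta2 (0.09 with quantile normalization, −0.49 to 0.20 with an array left out, positive without hairpin 1 and, at 0.03, without Pik3ca). It turned also for Slc7a11 (−0.56 to 0.12) and Cbr3 (−0.60 to 0.15), both positive without Pik3ca. Within slide 2 the comparison is a different one, Apc against Pik3ca alone, and there Apc minus Pik3ca was −0.10 for Nqo1. Pik3ca minus the others turned for Gpx3 (−0.01 with normexp) and for Gsta2 (−0.02 without hairpin 2 to 0.67 without hairpin 1). Pik3ca minus Apc alone, within slide 2, was −1.03 for Gpx3. No paired analysis was possible because only the hairpins carry replicate numbers and every other group has 1 array. Without one hairpin the genotype fits have no residual degrees of freedom and give values without tests.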
